A study of Homo sapiens with 7 samples.

Results

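The genes described here are those that carry signals from the cytokines of the interleukin-6 family to STAT3, namely the receptor chains IL6ST, LIFR and OSMR, the kinases JAK1, JAK2 and TYK2, the transcription factor STAT3, its inhibitors SOCS3 and PIAS3, and its target PIM1. They were taken by gene symbol from a table of 21305 genes. Of the 10 listed genes 9 had a row, OSMR was not analysed here, and 8 reached the mean of 10 normalized counts that was asked of the 15420 genes tested. The normalized count of a gene is its number of reads divided by one size factor per library. LIFR stayed under that mean and is given by its values.

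RNA was sequenced from 501Mel, a human melanoma cell line, after ribosomal RNA had been removed. All 7 libraries came from cells with a stably integrated short hairpin that doxycycline switches on, and all were dox-induced, the controls included. The hairpin was shlacZ, against a bacterial gene that human cells lack, in 3 libraries, and sh4 or sh8, both directed against the long non-coding RNA GRASLND, in 2 libraries each. The comparisons set the levels of these genes under hairpins against GRASLND beside those under shlacZ, in one cell line and with 2 replicates per GRASLND hairpin. Whether a change under a single hairpin came from the loss of GRASLND or from that hairpin itself was not tested. The labels do not say that replicates were separate cultures, so p-values measure the spread between these libraries only, which may be technical.

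IL6ST encodes gp130, the receptor chain that most cytokines of the interleukin-6 family share. A cytokine brings gp130 together with a second chain, such as the LIF receptor LIFR or the oncostatin M receptor OSMR, and the JAK kinases bound to the chains then phosphorylate each other and the receptor tails. STAT3 docks there through its SH2 domain, is phosphorylated, forms dimers and enters the nucleus. Its target SOCS3 binds gp130 and JAKs and closes the loop. In melanoma the pathway is known for its links to survival and to inflammatory signalling. The libraries measure RNA levels, and say nothing of phosphorylation.

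Libraries held 13337317 to 22855232 reads and 20303 to 20771 detected genes. The targeted GRASLND (ENSG00000228203; hg38 chromosome 2, 6911754 to 6918734, minus strand) averaged 309 ± 20.1 normalized counts (SD, n = 3) in shlacZ, 153 ± 30.9 (n = 2) in sh4 and 195 ± 45.1 (n = 2) in sh8. It fell in sh4 (log2 change -1.02 ± 0.205 SE, adjusted p = 0.00662, limma) and not past the threshold in sh8 (-0.68, adjusted p = 0.110). Over both hairpins the change was -0.85 (adjusted p = 0.0402), which passed in 1 of 7 fits that left out a library. All knockdown libraries lay below all controls, as they did for 11% of all genes tested. Between sh4 and sh8 GRASLND did not pass (-0.34, adjusted p = 0.421). Without sh4 replicate 2 its adjusted p in sh4 was 0.0772. Replicates of a group differed by a root mean square of 0.466 to 0.636 on the log2 scale over the genes tested. The highest values, 0.636 and 0.626, were the distances of shlacZ replicate 1 from the other two control libraries.

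The start regions of the member genes were read from RefSeq (GRCh38.p14), each window running from 250 bases before to 50 bases after a transcription start. All 10 members matched, with 18 windows, and the 17 windows of the 9 members other than OSMR were searched on both strands. TTCNNNGAA, the palindrome that STAT dimers are known to bind, was found in 2 of the 17, both of LIFR, and in 7.66% of the 35116 windows of all genes. CCAAT, the box bound by NF-Y, was found on either strand (ATTGG on the other) in 4 of the 17, 1 each of STAT3, IL6ST, TYK2 and LIFR, and in 34.6% of all windows. GGGCGG, the box bound by Sp1, was found in 7 of the 17 and in 45.0% of all windows, and CACGTG, the E-box that the melanocyte factor MITF is known to bind, in 0 of the 17 and in 7.26%. No TTCNNNGAA overlapped a CCAAT. For SOCS3, PIAS3 and LIFR the first base of the gene, in the coordinates given below, lay outside every window and was not searched. That of SOCS3, at 78360077, lay between its 2 windows. Of the members that rose in sh4, only STAT3 and IL6ST had a CCAAT in a window, and these windows are shown. The windows of JAK1, PIAS3 and PIM1, which also rose in sh4, held no CCAAT and no TTCNNNGAA and are not shown. That of TYK2 is shown because it held 6 CCAAT boxes in a gene that did not pass a test. The first of LIFR is shown because it held the STAT-type palindrome. The windows shown are written 5′ to 3′ on the strand of the gene, with capitals for TTCNNNGAA and for CCAAT or ATTGG.
STAT3 (chr17:42388393-42388692, minus strand): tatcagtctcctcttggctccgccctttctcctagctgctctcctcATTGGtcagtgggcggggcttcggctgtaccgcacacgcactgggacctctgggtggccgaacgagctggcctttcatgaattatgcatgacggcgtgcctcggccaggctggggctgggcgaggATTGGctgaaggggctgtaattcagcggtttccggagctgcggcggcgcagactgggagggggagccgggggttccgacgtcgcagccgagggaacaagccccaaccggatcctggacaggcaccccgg
IL6ST (chr5:55994914-55995213, minus strand): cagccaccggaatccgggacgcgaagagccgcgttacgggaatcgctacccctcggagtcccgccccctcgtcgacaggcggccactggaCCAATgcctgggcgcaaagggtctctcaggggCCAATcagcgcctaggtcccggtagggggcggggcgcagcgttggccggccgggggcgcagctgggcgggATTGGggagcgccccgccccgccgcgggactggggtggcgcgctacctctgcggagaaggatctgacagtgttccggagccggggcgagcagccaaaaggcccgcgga
TYK2 (chr19:10380523-10380822, minus strand): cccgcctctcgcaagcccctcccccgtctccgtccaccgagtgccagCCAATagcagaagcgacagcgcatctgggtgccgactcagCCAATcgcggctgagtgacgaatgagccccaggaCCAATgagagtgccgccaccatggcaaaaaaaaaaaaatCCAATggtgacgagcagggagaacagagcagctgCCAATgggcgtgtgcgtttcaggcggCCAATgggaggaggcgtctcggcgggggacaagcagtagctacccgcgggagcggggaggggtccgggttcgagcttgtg
LIFR (chr5:38595356-38595655, minus strand): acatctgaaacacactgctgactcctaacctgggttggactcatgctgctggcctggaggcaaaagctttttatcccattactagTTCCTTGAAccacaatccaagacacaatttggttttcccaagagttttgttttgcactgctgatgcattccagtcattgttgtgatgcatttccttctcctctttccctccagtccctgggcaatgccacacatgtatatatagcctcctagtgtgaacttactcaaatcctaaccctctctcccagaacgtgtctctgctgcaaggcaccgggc
The boxes of STAT3 began at -204 and -79 from the start, those of IL6ST at -160, -128 and -58, those of TYK2 between -203 and -30, and the palindrome of LIFR at -165. The other LIFR window with the palindrome (TTCATCGAA, at -182) also held a CCAAT, at -206. These matches describe the letters of the windows and nothing about which factors bind them.

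With both hairpins as one group (n = 4) against shlacZ (n = 3), 1 of the 8 tested members passed an adjusted p of 0.05, IL6ST, which rose. Of all 15420 genes 4.61% passed, 2.55% upward and 2.06% downward, and 1.99% also changed by more than 1 on the log2 scale, as 0 members did. The median log2 change of the members was 0.53, against -0.01 over all genes tested, and all 8 members had a positive change. Of the 8, 5 (IL6ST, STAT3, SOCS3, PIM1 and TYK2) are on the study's list of upregulated genes of this pathway. That list was drawn from these libraries, so their direction, here and in the counts that follow, is not independent evidence. The groups did not overlap for 3 of the 8, JAK1, IL6ST and PIAS3, whose 4 knockdown libraries all lay above the 3 controls, as they did for 10.2% of all genes. In sh4 alone 5 of 8 members rose, IL6ST, JAK1, STAT3, PIAS3 and PIM1, where 22.5% of all genes passed, 10.5% higher and 11.9% lower, and 2 of them, PIAS3 and PIM1, also changed by more than 1 (8.16% of all genes). Both sh4 libraries lay above all controls for 6 of 8 members and for 25.1% of all genes, and both sh8 libraries for 4 of 8 members and 16.5% of all genes. In sh8 alone 0 of 8 members passed by limma and 0 by limma-voom, where 2.92% of all genes passed, 1.38% higher and 1.54% lower, 1.15% with a change over 1. At an unadjusted p under 0.05 there were 4, JAK1, IL6ST, SOCS3 and PIAS3, and 18.5% of all genes. The median change of the members was 0.70 in sh4 and 0.27 in sh8, against -0.01 over all genes in each. Both hairpins were set against the same 3 control libraries.

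**Figure D1:**
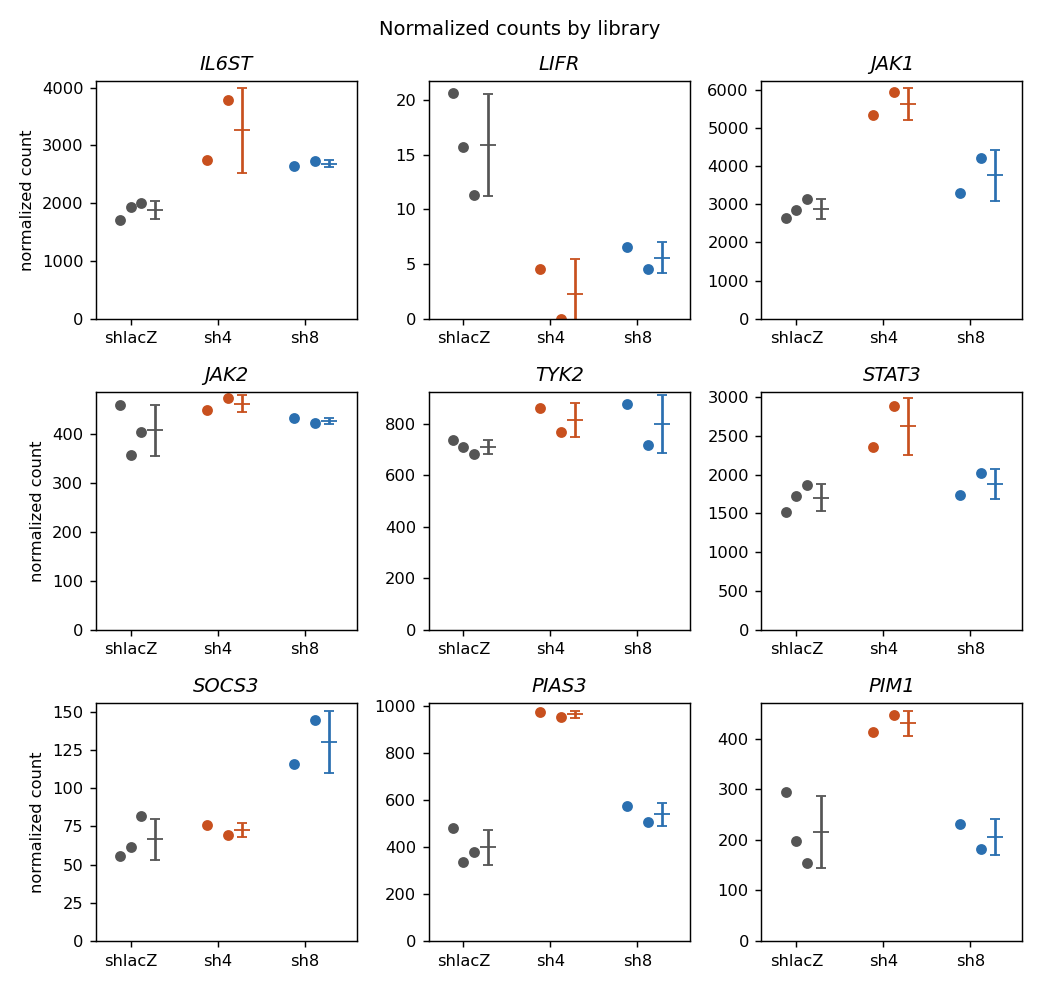
Normalized counts (vertical axes, linear) of the 9 members with a row in the 3 shlacZ, 2 sh4 and 2 sh8 libraries; each point is a library and bars are the mean ± SD, the lower bar of LIFR in sh4 ending at 0. The 2 sh4 libraries lie above the 3 controls for JAK1, at 5335 and 5936 against 2635 to 3145, while the 2 sh8 libraries stand highest for SOCS3, at 116 and 145.

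IL6ST (ENSG00000134352; hg38 chromosome 5, 55935095 to 55995022, minus strand), the signalling receptor chain, was measured at 1705, 1924 and 2003 normalized counts in shlacZ, at 2740 and 3782 in sh4 and at 2639 and 2722 in sh8. All 4 knockdown libraries stood above all 3 controls, and the second sh4 library stood well above the other 3. The means were 1877 ± 154, 3261 ± 737 and 2680 ± 58.8, so that sh4 was 1.74 times and sh8 1.43 times the control. Both hairpins together raised it by 0.65 ± 0.146 on the log2 scale (SE, adjusted p = 0.0384, limma). sh4 alone raised it by 0.78 ± 0.148 (adjusted p = 0.00514), and the change in sh8 of 0.52 (95% interval 0.186 to 0.848) had an adjusted p of 0.0963. The difference between sh4 and sh8 of 0.26 (interval -0.0984 to 0.627) did not pass (adjusted p = 0.384). The rise over both hairpins passed in 1 of the 7 fits that left out a library, namely without sh8 replicate 1 (adjusted p = 0.0318). It did not pass without shlacZ replicate 1, 2 or 3 (adjusted p = 0.0718, 0.151 and 0.114), sh4 replicate 1 or 2 (0.0821 and 0.0578) or sh8 replicate 2 (0.0506), nor with all libraries but no variance trend (0.101). The rise in sh4 missed the threshold without sh4 replicate 2 (0.55, adjusted p = 0.0576). A processed pseudogene of IL6ST is annotated on chromosome 17, and how the counting shared reads with it was not given.

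LIFR (ENSG00000113594; hg38 chromosome 5, 38474668 to 38608354, minus strand), which pairs with gp130 for LIF and oncostatin M, went the other way at a very low level. Its reads numbered 20, 15 and 13 in shlacZ, 4 and 0 with sh4 and 5 and 5 with sh8. In normalized counts these were 20.6, 15.7 and 11.3, then 4.52 and 0, then 6.59 and 4.55. All 4 knockdown libraries thus lay below all 3 controls, which was so for 11% of the 15420 genes tested. When all 21305 genes were tested, its log2 change was -2.07 over both hairpins (adjusted p = 0.114), -2.81 ± 0.703 in sh4 (adjusted p = 0.0204) and -1.34 in sh8 (adjusted p = 0.398). At so few reads the size of these changes depends on the count of 1 added before taking logs. The long non-coding RNA LIFR-AS1 is annotated across the start of LIFR on the other strand, and whether counting used the strand was not given. As a ratio to the IL6ST count, uncorrected for length, LIFR stood at 1.21%, 0.817% and 0.565% in shlacZ, at 0.165% and 0 in sh4 and at 0.250% and 0.167% in sh8.

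JAK1 (ENSG00000162434; hg38 chromosome 1, 64833223 to 65067754, minus strand), the kinase on which gp130 signalling mainly relies, was the most abundant member per kilobase of exon. Its normalized counts were 2635, 2843 and 3145 in shlacZ, 5335 and 5936 in sh4 and 3290 and 4226 in sh8. The sh4 libraries formed the highest pair, and the sh8 libraries stood between them and the controls. sh4 was 1.96 times the control (log2 change 0.97 ± 0.139 SE, adjusted p = 0.00127), a rise that passed in all 7 fits that left out a library, with adjusted p up to 0.0238. sh8 was 1.31 times the control (0.38, interval 0.0693 to 0.689, adjusted p = 0.183). Over both hairpins the change of 0.68 had an adjusted p of 0.0706, and of 0.0174 without sh8 replicate 1.

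JAK2 (ENSG00000096968; hg38 chromosome 9, 4984390 to 5129948, plus strand), which also couples to receptors of hormones such as erythropoietin, had 459, 356 and 404 normalized counts in shlacZ, 448 and 473 in sh4 and 431 and 422 in sh8. Both hairpins overlapped the controls, and the sh4 pair stood above the sh8 pair. The log2 change was 0.19 in sh4 (interval -0.150 to 0.526, adjusted p = 0.411) and 0.08 in sh8 (interval -0.261 to 0.416, adjusted p = 0.830), and the sign in sh8 turned without shlacZ replicate 2 (-0.01). TYK2 (ENSG00000105397; hg38 chromosome 19, 10350533 to 10380608, minus strand), the kinase best known from type I interferon and interleukin-12 receptors, had 737, 708 and 684 in shlacZ, 859 and 769 in sh4 and 878 and 719 in sh8. The sh4 pair stood above the controls and the sh8 pair overlapped them. Its log2 change was 0.20 in sh4 (interval -0.107 to 0.500, adjusted p = 0.335) and 0.16 in sh8 (interval -0.140 to 0.467, adjusted p = 0.564). The ratio of the JAK1 to the JAK2 count, which is not corrected for length and serves only to compare libraries, was 574% to 798% in shlacZ, 1190% and 1255% in sh4 and 763% and 1001% in sh8. Both sh4 libraries lay above all others, and the sh8 libraries overlapped the controls.

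STAT3 (ENSG00000168610; hg38 chromosome 17, 42313324 to 42388540, minus strand) was measured at 1515, 1729 and 1863 normalized counts in shlacZ, 2361 and 2883 in sh4 and 1744 and 2020 in sh8. Both sh4 libraries were above all controls, and the sh8 libraries overlapped them. The means of 1702 ± 175, 2622 ± 369 and 1882 ± 196 made sh4 1.54 times and sh8 1.11 times the control. The rise in sh4 was 0.62 ± 0.141 on the log2 scale (interval 0.307 to 0.936, adjusted p = 0.0118, limma), and it rested on sh4 replicate 2, without which it was 0.48 (adjusted p = 0.115). Without a trend in the variance its adjusted p was 0.0501. The change in sh8 was 0.15 (interval -0.168 to 0.461, adjusted p = 0.627), and over both hairpins 0.38 (adjusted p = 0.202). The difference between the hairpins was 0.47 (adjusted p = 0.0982), and passed without shlacZ replicate 1 (adjusted p = 0.0431), with libraries scaled to equal totals (0.56, adjusted p = 0.0331) and after quantile normalization (0.51, adjusted p = 0.0431).

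The feedback inhibitor SOCS3 (ENSG00000184557; hg38 chromosome 17, 78356778 to 78360077, minus strand) had the opposite order of hairpins. It was measured at 55.7, 61.8 and 81.8 normalized counts in shlacZ, 75.7 and 69.4 in sh4 and 116 and 145 in sh8. The sh8 pair stood above every other library, and the sh4 pair lay within the range of the controls. The means were 66.4 ± 13.6, 72.5 ± 4.42 and 130 ± 20.3. The log2 change was 0.97 ± 0.250 in sh8 (interval 0.415 to 1.53, unadjusted p = 0.00305 by limma), which missed the threshold over all genes (adjusted p = 0.0710). In sh4 it was 0.14 (interval -0.415 to 0.700, adjusted p = 0.732), and -0.01 after quantile normalization. The difference of sh4 from sh8 was -0.83 (interval -1.44 to -0.219, adjusted p = 0.103). As a ratio to the STAT3 count, uncorrected for length, SOCS3 stood at 3.68%, 3.57% and 4.39% in shlacZ, 3.20% and 2.41% in sh4 and 6.65% and 7.16% in sh8, so that both sh4 libraries were under and both sh8 libraries over the range of the controls.

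PIAS3 (ENSG00000131788; hg38 chromosome 1, 145848522 to 145859836, minus strand), a SUMO ligase that binds activated STAT3 and keeps it from DNA, rose the most of the tested members in sh4. Its normalized counts were 482, 334 and 378 in shlacZ, 975 and 954 in sh4 and 575 and 505 in sh8. All knockdown libraries were above all controls, and the sh4 pair lay clear of the sh8 pair. sh4 was 2.42 times the control (log2 change 1.29 ± 0.170 SE, adjusted p = 0.000851), which passed in all 7 fits that left out a library with adjusted p up to 0.0160. sh8 was 1.36 times the control (0.45, interval 0.0748 to 0.832, adjusted p = 0.191), and passed without shlacZ replicate 1, the control with the highest value (0.60, adjusted p = 0.0257). Over both hairpins the change of 0.87 had an adjusted p of 0.0733, and of 0.0436 without sh8 replicate 2.

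PIM1 (ENSG00000137193; hg38 chromosome 6, 37170152 to 37175428, plus strand), a serine/threonine kinase that promotes survival and a known STAT3 target, rose in sh4. Its normalized counts were 295, 197 and 155 in shlacZ, 413 and 448 in sh4 and 231 and 181 in sh8. The sh4 pair lay above all other libraries, and the controls spread widely, with replicate 1 the highest. sh4 was 2.00 times the control (log2 change 1.04 ± 0.254 SE, adjusted p = 0.0162). That call needed both sh4 libraries, since without replicate 1 the change was 1.10 (adjusted p = 0.0869) and without replicate 2 it was 0.99 (adjusted p = 0.113). Without a variance trend its adjusted p was 0.0520. In sh8 the change was -0.03 (interval -0.592 to 0.541, adjusted p = 0.972), with the sign turning without shlacZ replicate 1 (0.23) or sh8 replicate 2 (0.15).

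**Figure D2:**
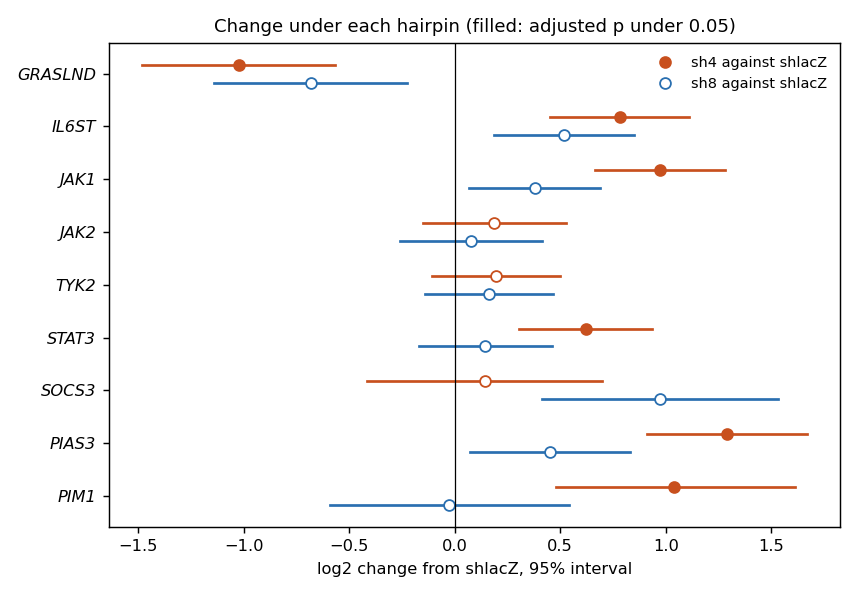
Log2 change against shlacZ (horizontal axis, log2 of the normalized count plus 1) of GRASLND and the 8 tested members for sh4 and sh8, with 95% intervals from limma; filled points passed an adjusted p of 0.05 over all genes. The sh4 points of IL6ST, JAK1, STAT3, PIAS3 and PIM1 are filled and positive, and no sh8 point is filled.

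Whether the hairpins differed was tested directly, as sh4 against sh8 within the fit of all 7 libraries. Of the 8 members 3 were higher in sh4, JAK1, PIAS3 and PIM1, where 7% of all genes passed, 3.67% higher and 3.33% lower in sh4. The difference was over 1 on the log2 scale for PIM1 alone of the 3, and passed with that size for 3.19% of all genes. The difference was 0.59 ± 0.152 for JAK1 (adjusted p = 0.0458), 0.84 ± 0.186 for PIAS3 (adjusted p = 0.0255) and 1.07 ± 0.278 for PIM1 (adjusted p = 0.0484). Each of the 3 missed the threshold without some of the libraries. JAK1 passed in 1 of 7 fits without a library (without shlacZ replicate 1) and missed in the others, at adjusted p = 0.0532 to 0.293. PIAS3 missed without either sh4 library (0.126 and 0.157) or either sh8 library (0.0994 and 0.147). PIM1 missed without shlacZ replicate 2 (0.0667), either sh4 library (0.162 and 0.253) or either sh8 library (0.128 and 0.221). With no variance trend all 3 missed (adjusted p = 0.0795 to 0.134), and with no minimum mean JAK1 and PIM1 (0.0513 and 0.0502). No difference passed for IL6ST, STAT3, JAK2, TYK2 or SOCS3, with JAK2 at 0.11 (adjusted p = 0.758) and TYK2 at 0.03 (adjusted p = 0.927).

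The levels of the members relative to each other were compared per kilobase of exon. The length was that of all annotated exons of a gene together, whichever transcripts the cells made. Whether the order holds with another choice of length was not tested. In shlacZ JAK1 stood highest at 218 ± 19.5 normalized counts per kilobase, followed by IL6ST at 156 ± 12.8 and STAT3 at 152 ± 15.6, whose values overlapped. TYK2 (83.3 ± 3.12), PIAS3 (82.8 ± 15.8), PIM1 (71.2 ± 23.8) and JAK2 (51.4 ± 6.53) formed a middle group in which each overlapped its neighbour in the order. SOCS3 followed at 24.3 ± 4.98 and LIFR at 1.31 ± 0.384, both clear of the gene above. Under sh4 PIAS3 (200.6 ± 3.06) and PIM1 (142 ± 8.04) stood above TYK2 (95.5 ± 7.53) without overlap, and IL6ST (270 ± 61.1) still overlapped STAT3 (234 ± 32.9). Under sh8 IL6ST (222 ± 4.88) lay clear of STAT3 (168 ± 17.4), and PIAS3 (112 ± 10.2) clear of TYK2 (93.7 ± 13.2). JAK1 was the highest, and SOCS3 and LIFR the lowest, in all 3 groups.

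**Figure D3:**
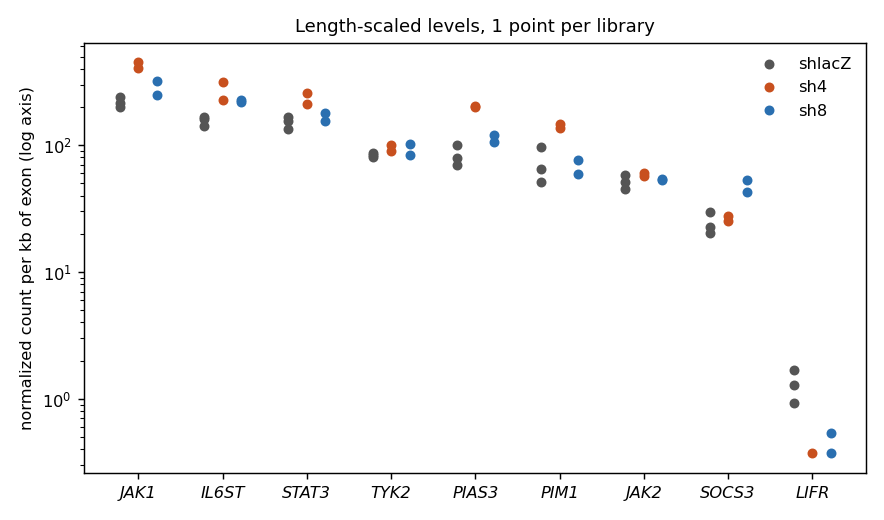
Normalized count per kilobase of exon (log axis) of the 9 members in the 7 libraries, ordered by their level in shlacZ; points are libraries, and the sh4 library with 0 reads of LIFR cannot be drawn on this axis. JAK1 is the highest member in each group, and LIFR lies far below the others.

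The genes whose course over the 7 libraries was most like that of a member were found by the root mean square difference of log2 values, each gene centred on its mean, in a search of the 11373 genes that averaged 50 normalized counts or more. For STAT3 these were UGGT1 (0.0458), CORO1B (0.0537) and ESYT1 (0.0566), against a median of 0.372 over all those genes. UGGT1, a sensor of misfolded glycoproteins in the endoplasmic reticulum, averaged 1398, 2185 and 1569 normalized counts in shlacZ, sh4 and sh8. JAK1 was nearest to TSPAN14 (0.0643), ABHD16A (0.0677) and CCNDBP1 (0.0688), and IL6ST to FYTTD1 (0.0676), STK17B (0.0823) and LINC01963 (0.0828). PIAS3 was nearest to ACADVL (0.130), PPP1R21 (0.135) and PITPNC1 (0.139), and PIM1 to LPXN (0.0935), RORA (0.103) and CFAP69 (0.134). Among the members themselves the closest pairs were JAK2 with TYK2 (0.133), STAT3 with JAK1 (0.162), STAT3 with IL6ST (0.168) and JAK1 with IL6ST (0.174). These distances are descriptions of 7 libraries that share their size factors. Genes that change little, such as JAK2 and TYK2, are close by this measure whatever their course. The nearest of 11373 genes are close by selection.

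The rest of the pathway was taken from 6 lists by role, with 62 genes, of which 55 had a row and 48 were tested. Over both hairpins 2 of the 48 passed, both higher. In sh4 11 rose and 4 fell, and in sh8 1 rose and 2 fell. The median log2 changes of the 48 were 0.07, 0.09 and 0.07, near the -0.01 over all genes, and the shares that passed are to be read against the 4.61%, 22.5% and 2.92% of all genes given above.

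Ligands were scarce. Of the 11 listed cytokines of the family 5 had a row and 1 was tested, CNTF, which did not pass in any comparison. Interleukin-6 itself (IL6) had 0, 3 and 5 reads in shlacZ, 0 and 1 in sh4 and 0 and 4 in sh8. LIF had 0, 3 and 3 reads in shlacZ, 8 and 23 in sh4 and 0 and 3 in sh8. The cardiotrophin gene CTF1 had 1 to 8 reads.

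Of the other receptor chains of the family 2 of 5 rose in sh4, where 10.5% of all genes passed higher. IL27RA, which pairs with gp130 for interleukin-27, went from 48.9 ± 9.25 normalized counts in shlacZ (n = 3) to 162 ± 23.6 in sh4 (n = 2), a log2 change of 1.72 (adjusted p = 0.00172, limma) that passed in all 7 fits without a library, and it stood 1.32 higher in sh4 than in sh8 (adjusted p = 0.0234). That difference missed the threshold without any one of the 4 knockdown libraries (adjusted p = 0.0738 to 0.203). IL31RA, which pairs with OSMR for interleukin-31, had 0, 2 and 0 reads in shlacZ, 20 and 110 in sh4 and 0 and 6 in sh8. Its adjusted p in sh4 was 0.00686, and 0.0971 without sh4 replicate 2, the library with the most reads, and no fold is given against so few reads. Of 7 receptors that use the same kinases for other cytokines, IL10RB (0.68, adjusted p = 0.0349) and IL13RA1 (0.55, adjusted p = 0.0354) rose in sh4. Both are on the study's own list of this pathway, which was drawn from these libraries.

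Of the other JAK and STAT genes 2 of 6 rose in sh4, where 10.5% of all genes passed higher. STAT6, the factor of interleukin-4 and interleukin-13 signalling, averaged 1347 normalized counts in shlacZ, 2417 in sh4 and 1971 in sh8. It passed over both hairpins (log2 change 0.70, adjusted p = 0.0204), in sh4 (0.84, adjusted p = 0.000939) and in sh8 (0.55, adjusted p = 0.0323). The rise in sh4 passed in all 7 fits without a library, while that in sh8 passed in 1 of 7 and missed without shlacZ replicate 2 or 3, either sh4 library or either sh8 library (adjusted p = 0.0580 to 0.256), without a variance trend (0.120) and with only the libraries compared (0.0591). That over both hairpins missed without shlacZ replicate 2 or 3 or sh4 replicate 1 (adjusted p = 0.0588 to 0.0944) and without a variance trend (0.0656). STAT2, a factor of the type I interferon response that is also on the study's list, rose in sh4 by 0.59 (adjusted p = 0.0322).

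Of 13 other inhibitors 1 rose and 3 fell in sh4, where 10.5% of all genes passed higher and 11.9% lower. Of the SUMO ligases related to PIAS3, PIAS1 rose by 0.46 (adjusted p = 0.0183), PIAS2 fell by 0.64 (adjusted p = 0.00443), and PIAS4 had a change of 0.04 (adjusted p = 0.902). The phosphatase gene PTPN2, whose product removes phosphate from JAK1 and STATs, fell by 0.51 (adjusted p = 0.0199), and SOCS6, a relative of SOCS3, fell by 0.64 (adjusted p = 0.00707). SOCS6 was lower in sh4 than in sh8 by the direct test (-0.66, adjusted p = 0.0225), and missed without any one of the 4 knockdown libraries (adjusted p = 0.0808 to 0.168) or without a variance trend (0.0802). In sh8 the phosphatase gene PTPN1 fell by 0.60 (adjusted p = 0.0310), and missed the threshold without shlacZ replicate 2 or 3 or either sh8 library (adjusted p = 0.0629 to 0.226), or without a variance trend (0.129).

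Of 16 known STAT3 targets tested 4 rose and 1 fell in sh4, where 10.5% of all genes passed higher and 11.9% lower. In sh8 0 rose and 1 fell, where 1.38% of all genes passed higher and 1.54% lower. The median log2 change of the 16 was 0.06 in sh4 and -0.14 in sh8. CEBPD, a transcription factor of the acute-phase response, averaged 80.0 normalized counts in shlacZ, 291 in sh4 and 168 in sh8, a rise of 1.88 on the log2 scale in sh4 (adjusted p = 0.00125) and of 1.49 over both hairpins (adjusted p = 0.0266). The latter missed without any one control library or sh4 replicate 1 (adjusted p = 0.0542 to 0.0996), and without a variance trend (0.0705). TIMP1, an inhibitor of matrix proteases, rose by 1.47 in sh4 (adjusted p = 0.00109), the repressor BCL6 by 1.40 (adjusted p = 0.00426) and HIF1A, the oxygen-regulated factor, by 0.95 (adjusted p = 0.00341). These 4 rises in sh4 passed in all 7 fits without a library. MYC, which drives growth and ribosome production, fell by 1.51 (adjusted p = 0.000287), and was lower in sh4 than in sh8 in the fit of all libraries and in all 7 without one. In sh8 CCND1, the cyclin of G1 phase, fell by 0.90 (adjusted p = 0.0195), and missed without shlacZ replicate 2 or 3 or either sh8 library (adjusted p = 0.0523 to 0.173), or without a variance trend (0.108).

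The sh4 calls of 6 of these genes depended on single libraries. Without sh4 replicate 1 the adjusted p was 0.270 for STAT2, 0.0577 for SOCS6, 0.0579 for PIAS1, 0.0845 for PTPN2, 0.131 for IL10RB and 0.120 for IL13RA1. Without sh4 replicate 2 it was 0.0503 for SOCS6, 0.128 for PIAS1, 0.115 for PTPN2, 0.183 for IL10RB and 0.189 for IL13RA1. Without shlacZ replicate 2 or 3 STAT2, PIAS1, PTPN2, IL10RB and IL13RA1 missed it (adjusted p = 0.0558 to 0.110), and without sh8 replicate 1 or 2 STAT2, IL10RB and IL13RA1 missed it narrowly (adjusted p up to 0.0546). Without a variance trend STAT2 (0.0944) and PIAS1 (0.0570) missed it, and with only the libraries compared STAT2 (0.0515), IL10RB (0.0504) and IL13RA1 (0.0533). Their changes kept their direction in all of these fits.

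**Figure D4:**
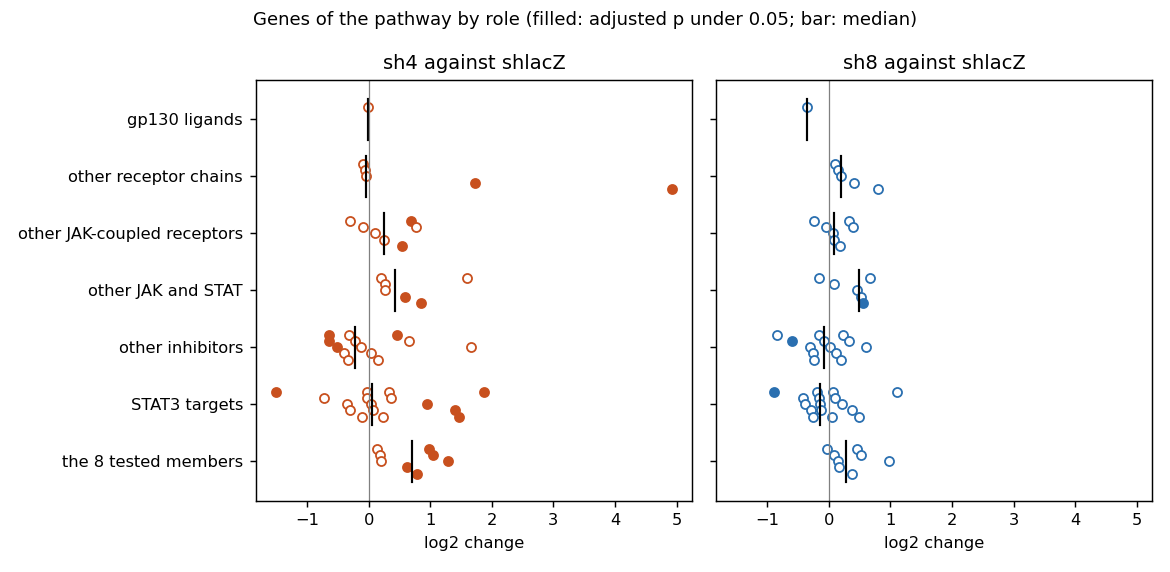
Log2 change against shlacZ (horizontal axis) of the tested genes of the 6 role lists, and of the 8 tested members, in sh4 and in sh8. Each point is a gene, filled where it passed an adjusted p of 0.05, and bars are medians of a list. Filled points lie on both sides of 0 in sh4, with 11 genes of the role lists higher and 4 lower, and 5 members higher.

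The study's own list of genes of this pathway was drawn from these libraries, so that its direction is not independent evidence. It holds 18 genes, 5 of them members here (IL6ST, STAT3, SOCS3, PIM1 and TYK2). Of the genes of the role lists named above, STAT2, IL10RB and IL13RA1 are also on it. Of the 18 genes 2 passed over both hairpins, 11 in sh4 and 1 in sh8, all higher, with medians of 0.45, 0.57 and 0.29. Of all genes tested 2.55%, 10.5% and 1.38% passed higher in these comparisons.

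Markers of the melanocytic state were mostly lower in sh4, with a median log2 change of -1.27. Among 7 such genes, 6 (all but TYR) were lower in sh4 than in shlacZ (limma), where 11.9% of all genes passed lower. In sh8 0 passed by limma and 0 by limma-voom, and 5 had an unadjusted p under 0.05, as 18.5% of all genes did, and over both hairpins 1 passed, PMEL, which was lower (-0.91, adjusted p = 0.0443). Their summed level was 135575 to 146343 normalized counts in shlacZ, 51868 to 59737 in sh4 and 101544 to 104484 in sh8. Of 13 markers of other cell types, fixed with the lists, 2 had a row, and 11 were not analysed here. Their summed level was 8.26 to 15.7 in shlacZ, 342 to 508 in sh4 and 15.5 to 18.5 in sh8. In sh4 almost all of it was LYZ, the lysozyme gene. In every shlacZ and sh8 library the larger part was the collagen gene COL1A1, which did not pass in any comparison. LYZ had 0 to 4 reads in shlacZ, 298 and 659 in sh4 and 4 and 8 in sh8. In bulk RNA fewer cells of a type and less RNA per cell cannot be told apart. The part of these markers in the changes of the pathway genes was not tested.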

How the data were processed

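Total RNA of 7 libraries of 501Mel cells was depleted of ribosomal RNA and made into stranded libraries. Per the study's methods and the labels, the authors trimmed reads with cutadapt, aligned them to hg38 with STAR, counted genes with Salmon and deposited normalized counts, which are counts divided by a size factor per library from DESeq2. Versions and the annotation were not given in the sources used here. Low values were whole multiples of what 1 read is worth for 100% of the values (tolerance 0.01 of a read), which gave reads and depth. Every gene in the table had at least 10 reads over the 7 libraries, 99.9% of the identifiers were in GENCODE 44, which supplied coordinates and exon lengths, and 0 columns belonged to other samples.

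Groups were taken from the sample titles. Log2(normalized count + 1) was fitted with limma 3.58.1 (R 4.3.3) with a variance trend over 15420 genes, those that averaged 10 or more, and p-values were adjusted by Benjamini-Hochberg over all of them. Fold changes are on that scale and understate changes of low genes. Both hairpins were set against shlacZ in a fit with 2 levels, and single hairpins in a fit with 3 groups. A gene passed at an adjusted p under 0.05. The script was tested on simulated data. Alternatives were another pseudocount (10), no minimum, equal totals, quantile normalization, no variance trend, limma-voom, other groupings of the fit, the replicate number as a block and leaving out each library. The members, the lists and the tests were chosen with earlier results of these data known. The genes named are the members, GRASLND, every gene of the 6 role lists that passed a comparison, and the 3 genes nearest in profile to STAT3 and to each member that passed. LYZ, COL1A1 and the genes of the ligand list were named after their values were seen. The labels pair no hairpin with its sequence, so none is shown.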

Additional observations from a re-analysis of the deposited data

Results flagged for a closer look

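Among the 4 knockdown libraries the second sh4 library was far from the others for IL6ST, with a gap to the nearest of 0.912 of the whole range. It was 1 of 10 genes looked at in this way, and chance gives about 1 in 20.

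The effects of sh4 and sh8 differed, by the direct test in limma, for 3 members and 6 genes of the role lists, where 7% of all genes passed. In log2 units sh4 minus sh8 was 0.59 for JAK1, 0.84 for PIAS3 and 1.07 for PIM1 among the members. Of the other pathway genes it was 1.32 for IL27RA, -0.66 for SOCS6, 0.79 for CCND1, -1.36 for MYC, 0.74 for HIF1A and 1.41 for TIMP1. MYC passed this test in all 7 fits that left out a library. TIMP1 missed it without sh4 replicate 2 (1.35, adjusted p = 0.0892) or sh8 replicate 1 (1.23, adjusted p = 0.0662). HIF1A missed it without shlacZ replicate 2 (0.74, adjusted p = 0.0572), sh4 replicate 2 (0.47, adjusted p = 0.252) or either sh8 library (0.68 and 0.80, adjusted p = 0.216 and 0.121). IL27RA, SOCS6 and CCND1 missed it without any one of the 4 knockdown libraries, with adjusted p of 0.0738 to 0.203, 0.0808 to 0.168 and 0.0530 to 0.215.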

How the results depend on the processing

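The count of members that passed over both hairpins was 1, and 0 without a variance trend, 3 (IL6ST, JAK1 and PIAS3) when both hairpins were averaged within the 3-group fit and 0 to 2 without one library. In sh4 it was 5, and 3 without a variance trend and 2 to 5 without one library, where 2 (JAK1 and PIAS3) were left without sh4 replicate 2. In sh8 it was 0, and 1 (IL6ST, 0.57, adjusted p = 0.0415) after quantile normalization and 0 to 1 without one library. Between sh4 and sh8 it was 3, and 1 with no minimum mean, 0 without a variance trend and 0 to 4 without one library. With the replicate number as a block (replicate block) the counts were 0 over both hairpins, 5 in sh4, 1 in sh8 (SOCS3, 1.13, adjusted p = 0.0448) and 4 between the hairpins, STAT3 being the one gained (adjusted p = 0.0423). The block also ended the calls over both hairpins of IL6ST, GRASLND, STAT6 and CEBPD (adjusted p = 0.128 to 0.150) and that of IL10RB in sh4 (0.0646). Same-numbered libraries deviated together by correlations of -0.0781 to 0.337. With 2 libraries per hairpin these cannot settle whether same-numbered libraries were handled together, which the labels do not give. The numbers were not taken to pair the samples in the main fits. Signs turned for SOCS3 in sh4 after quantile normalization (-0.0135) and, over the fits without one library, for JAK2 in sh8 (-0.0132 to 0.17), PIM1 in sh8 (-0.24 to 0.23) and TYK2 between the hairpins (-0.11 to 0.18), none of which had passed. Of the values for single genes 786 kept direction and side of the threshold, 127 lost the threshold, 11 gained it and 6 changed sign. Over all genes the count that passed over both hairpins was 711, against 138 without a variance trend, 42 with the block, 2534 with the 3-group mean and 64 to 1144 without one library. In sh4 it was 3464 (1413 to 4865 without one library), in sh8 451 (59 without a variance trend, 53 to 1600 without one library) and between the hairpins 1079 (144 to 1975). The cause of these shifts was not tested. A planned edgeR test was not run because the table could not be declared as recovered reads; limma-voom on the recovered reads gave 1, 5, 0 and 3 members. Genes at a few reads, such as LIFR and the ligands, are limited by depth.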
